A study of Mus musculus with 36 samples.

Results

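The genes described here are 8 genes of the odorant-binding proteins and secretions of the nasal glands, chosen by name and read in every group. They are Obp1a (ENSMUSG00000067684), Obp2a (ENSMUSG00000062061), Obp2b (ENSMUSG00000079539), Muc5b (ENSMUSG00000066108), Muc2 (ENSMUSG00000025515), Scgb1c1 (ENSMUSG00000038801), Bpifa1 (ENSMUSG00000027483) and Sox9 (ENSMUSG00000000567). All 8 were found among 57010 gene identifiers, and all 8 passed the filter on low counts in each of 3 sets of libraries. RNA bound to ribosomes that carry phosphorylated ribosomal protein S6 (pS6) was immunoprecipitated from the olfactory epithelium of male, wild-type C57BL/6J mice aged 8 weeks and sequenced. Mice spent 4 h without odor and then 90 min with 10 µL of odorant on filter paper, or with empty paper in the no-odor groups. The AD set holds no-odor controls, acetophenone, decanal and an equal-part mixture of these odorants. The OC set holds no-odor controls, octanal, cis-3-hexenol and their equal-part mixture. The FM set holds no-odor controls, a floral fragrance, a mint fragrance and a floral-mint fragrance, whose make-up the labels do not give. Each of the 12 groups has 3 mice, 36 libraries in all, and the labels' batch entry names the set.

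Odorant-binding proteins are small secreted lipocalins, barrel-shaped carriers that bind hydrophobic odorants and pheromones in nasal mucus, and they are made mainly in the lateral nasal and septal glands. The olfactory mucosa has its own Bowman's glands, whose ducts cross the epithelium and whose mucus bathes the cilia of the sensory neurons. Gland secretion holds gel-forming mucins (Muc5b, Muc2), a small secretoglobin (Scgb1c1) and an antimicrobial, surface-active protein of the BPI fold (Bpifa1). Sox9 is a transcription factor of gland and duct cells in this tissue, and the lists used here also place it among genes of microvillous and tuft cells. The antibody to pS6 enriches RNA from cells in which S6 is phosphorylated, which in sensory neurons follows activation by odor. The genes described here belong mostly to cells other than neurons.

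The levels of the 3 odorant-binding protein genes moved together from mouse to mouse, so the 250 bases before their RefSeq starts are shown. RefSeq gave windows for 6 of the 8 genes on the build GRCm38.p6, which is not the build of the count files. Muc5b and Sox9 had no entry. Capitals mark TATAAA, the core promoter motif bound by the TATA-binding protein, searched on both strands as TATAAA and TTTATA. The windows are chrX:78091375-78091624 on the minus strand for Obp1a, and chr2:25699824-25700073 and chr2:25736757-25737006 on the plus strand for Obp2a and Obp2b.
Obp1a: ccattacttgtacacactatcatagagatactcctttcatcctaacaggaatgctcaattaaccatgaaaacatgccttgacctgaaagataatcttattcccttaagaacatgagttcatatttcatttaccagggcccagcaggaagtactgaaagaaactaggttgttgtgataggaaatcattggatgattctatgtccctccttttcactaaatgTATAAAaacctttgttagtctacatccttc
Obp2a: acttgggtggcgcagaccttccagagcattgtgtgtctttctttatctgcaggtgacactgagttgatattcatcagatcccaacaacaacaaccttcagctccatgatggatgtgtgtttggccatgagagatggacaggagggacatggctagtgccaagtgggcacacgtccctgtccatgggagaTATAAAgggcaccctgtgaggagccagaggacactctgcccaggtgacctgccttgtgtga
Obp2b: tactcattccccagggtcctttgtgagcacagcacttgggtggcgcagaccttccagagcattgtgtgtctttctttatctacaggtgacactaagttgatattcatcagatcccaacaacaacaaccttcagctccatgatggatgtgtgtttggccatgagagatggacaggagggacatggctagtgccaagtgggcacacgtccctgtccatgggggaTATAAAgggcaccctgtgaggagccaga
The first base of TATAAA lay 30 bases before the start in Obp1a, 61 in Obp2a and 28 in Obp2b. It also lay 29 bases before the start in Bpifa1 and 174 in Muc2, and the window of Scgb1c1 held none on either strand. Among 32851 RefSeq windows of 300 bases (250 before and 50 after the start), 13.6% held the motif on either strand. Over the windows of 300 bases, Obp2a and Obp2b were nearly the same sequence, with 263 of 267 aligned bases identical, whereas that of Obp1a aligned with them over at most 12 bases. The spliced transcripts of Obp2a and Obp2b were less alike, at 76.5% identity over 591 bases. No member had another gene at 95% identity or more over 200 bases or more.

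Library totals ran from 16.04 to 26.4 M counts, and the 8 genes together took 0.404% to 2.19% of a library (median 0.899%). Levels are given as CPM, read counts relative to the TMM-adjusted size of the library. Markers of mature olfactory sensory neurons (17 genes such as Omp and Gnal) summed to 8587 to 30560 CPM, so the labelled tissue carried its defining markers in every library. Between genes, levels were compared per kb of annotated exon. The median level was 6668 CPM per kb for Scgb1c1, 3084 for Bpifa1, 231 for Obp2a, 85.4 for Obp1a, 42.8 for Obp2b, 17.0 for Muc5b, 15.7 for Sox9 and 2.102 for Muc2. The secretoglobin and the BPI-fold gene thus headed the list on this scale, and both mucins were far below them.

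The odorant-binding protein genes ranged over several orders of magnitude between mice treated alike. Obp1a ran from 1 to 31037 counts per library, or 0.0441 to 2036 CPM. Obp2a ran from 9 to 127716 counts, or 0.378 to 8379 CPM, and Obp2b from 2 to 21602 counts, or 0.0840 to 1417 CPM. The lowest library was a no-odor mouse of the AD set for Obp1a and an acetophenone mouse for Obp2a and Obp2b. The highest library was the same for all 3 genes, no-odor control replicate 3 of the OC set. Within a group, the highest mouse was 1.75 to 5176 times the lowest for Obp1a, with a median over groups of 55.5. These values were 1.32 to 5177 (median 35.5) for Obp2a and 1.07 to 4692 (median 29.25) for Obp2b.

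Obp2a is described in full because it had the highest counts of the 3. Its no-odor levels in the AD set were 71.9, 1.90 and 386 CPM. Acetophenone mice had 0.378, 1957 and 1052 CPM, decanal mice 511, 25.3 and 136 CPM, and mice given their mixture 4.85, 19.1 and 392 CPM. Each group therefore held high and low mice, and each odor group overlapped the controls. In the OC set the no-odor mice had 103, 354 and 8379 CPM and the octanal mice 138, 193 and 156 CPM. Mice given cis-3-hexenol had 229, 14.6 and 25.01 CPM, and those given the mixture 82.0, 378 and 20.6 CPM. The 3 octanal mice lay between the lowest and the middle control. In the FM set the no-odor mice had 187, 620 and 29.9 CPM, the floral mice 136, 603 and 12.02 CPM and the mint mice 907, 14.1 and 473 CPM. The floral-mint mice, at 513, 427 and 562 CPM, were close to each other and lay inside the range of the controls.

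Obp1a was read in the same mice. Its no-odor levels were 34.4, 0.0441 and 228 CPM in the AD set, 33.4, 233 and 2036 CPM in the OC set and 35.5, 564 and 0.598 CPM in the FM set. Acetophenone mice had 0.588, 735 and 401 CPM, octanal mice 60.7, 68.6 and 106 CPM and mint mice 424, 0.935 and 325 CPM. Obp2b, which lies on chromosome 2 like Obp2a, had no-odor levels of 20.4, 0.529 and 70.7 CPM in the AD set, 15.9, 41.2 and 1417 CPM in the OC set and 50.8, 78.0 and 8.41 CPM in the FM set. In each set the lowest no-odor mouse was the same for the 3 genes, and so was the highest.

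**Figure D1:**
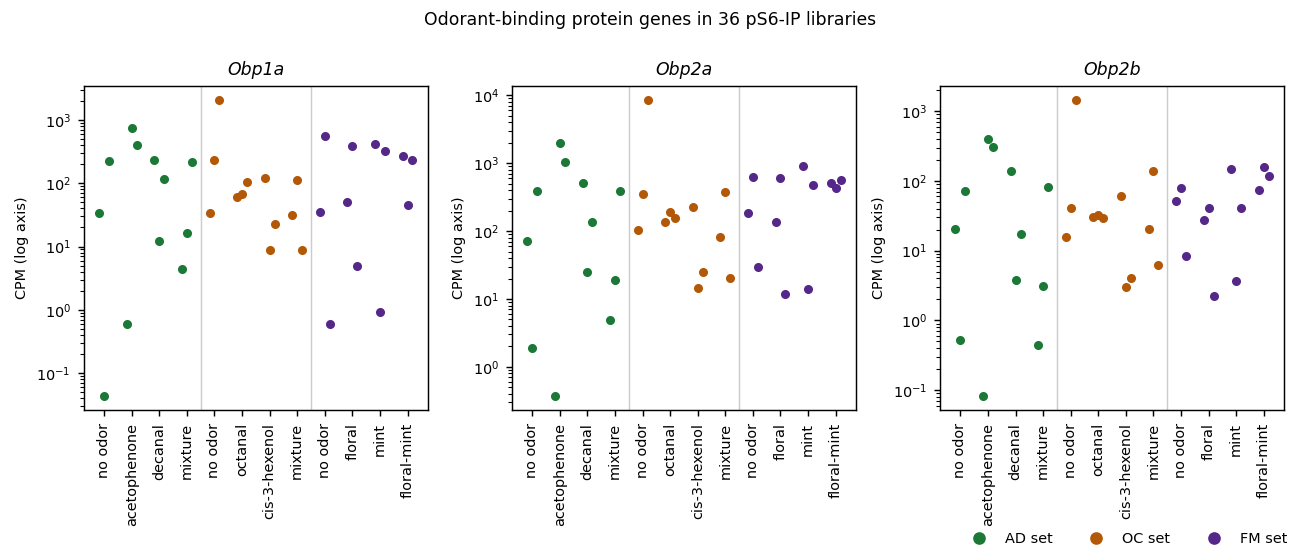
CPM on a log axis of Obp1a, Obp2a and Obp2b in each library (1 point per mouse, 3 per group, colored by set) for the 12 groups. The ratio of the highest to the lowest mouse of a group reaches 5176 for Obp1a, 5177 for Obp2a and 4692 for Obp2b, and the highest point of each panel is a no-odor mouse of the OC set.

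The spread between mice was measured as the SD of log2(CPM + 0.5) around the group means over 36 libraries. It was 3.27 for Obp1a, 3.02 for Obp2a and 2.76 for Obp2b, against a median of 0.230 and a 95th percentile of 0.491 over the 18435 genes tested in all sets. These values ranked 4, 7 and 15 from the most variable gene. The other 5 members were ordinary by this measure, at 0.315 for Muc2, 0.291 for Scgb1c1, 0.280 for Bpifa1, 0.272 for Muc5b and 0.219 for Sox9. The most even group was octanal for Obp2b, whose highest mouse was 1.07 times the lowest.

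**Figure D2:**
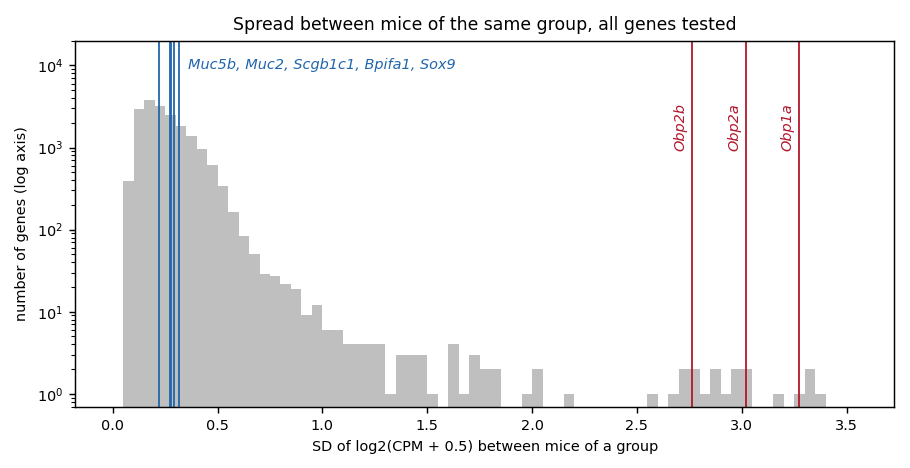
Histogram over 18435 genes of the SD of log2(CPM + 0.5) between mice of a group (horizontal axis) against the number of genes (log axis), with vertical lines at the 8 members. The 3 odorant-binding protein genes, at 2.76 to 3.27, lie far in the right tail, and the other 5, at 0.219 to 0.315, lie in the bulk of the genes.

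With group means removed, the 3 odorant-binding protein genes correlated across the 36 mice. Over 28 pairs of members tested, Pearson's r was 0.952 (Spearman's rho 0.958) for Obp1a with Obp2a, 0.902 (rho 0.907) for Obp1a with Obp2b and 0.983 (rho 0.975) for Obp2a with Obp2b. Each p from 100000 permutations within groups was 1e-05, the smallest they can give, and each adjusted p was 9.333e-05. Without the 2 farthest libraries r was 0.946, 0.882 and 0.976, and within each set it lay between 0.873 and 0.994. Obp2a stood above Obp1a in 35 of 36 libraries (median ratio of CPM 2.15) and above Obp2b in 36 of 36 (median ratio 4.93, range 2.68 to 14.8).

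Among the other pairs, Muc5b and Scgb1c1 varied together between mice of a group, with r 0.587 (permutation p 0.00388, adjusted p 0.0272) and rho 0.563 (adjusted p 0.0331). Without the 2 farthest libraries r was 0.531, and within the AD, OC and FM sets it was 0.692, 0.546 and 0.474. None of the other 24 pairs passed. For Obp1a with Scgb1c1, for example, r was 0.118 and rho 0.137 (permutation p 0.561 and 0.506).

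**Figure D3:**
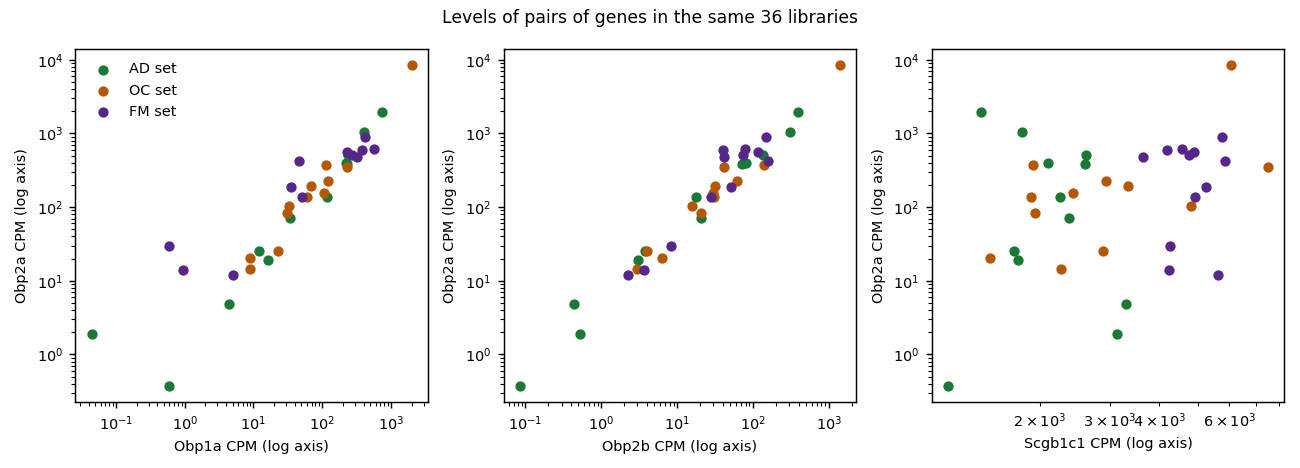
CPM of Obp2a (vertical, log axis) against Obp1a, Obp2b and Scgb1c1 (horizontal, log axes) in the 36 libraries, colored by set. The points follow a line in the first 2 panels (r 0.952 and 0.983 with group means removed) and scatter in the third.

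The genes most like the odorant-binding protein genes included other secreted carriers. Likeness was the Pearson r of log2(CPM + 0.5) over 36 libraries with set means removed, given as a description, and the libraries share depth and dissection. The closest to Obp1a were Obp1b (0.997), another odorant-binding protein gene, the lipocalin gene Lcn11 (0.988) and BC051076 (0.980). For Obp2a they were Obp2b (0.976), Lcn11 (0.966) and Obp1b (0.950), and for Obp2b they were Obp2a (0.976), Lcn11 (0.918) and BC051076 (0.889). Obp1b had 0 counts in no-odor replicate 2 of the AD set and 44500 in no-odor replicate 3 of the OC set, and Lcn11 had 5 and 26832. Mup4, a major urinary protein gene of the lipocalin family, had 0 and 66244. In the same mice Obp1a had 1 and 31037 counts.

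A list of lateral nasal and septal gland markers had a similar spread. Of its 10 genes 9 had an identifier, 2 of them (Prol1 and Smgc) were at 0 in every library, Obp1a is itself a member, and Obp1b, Lcn11 and Mup4 stand also in the lipocalin list used below. Its sum ran from 1.89 to 2844 CPM among acetophenone mice, 177 to 11090 among OC controls and 261 to 369 among octanal mice. In OC control replicate 3, Obp1a, Obp1b, Lcn11 and Mup4 had 2036, 2920, 1760 and 4346 CPM, nearly all of the highest sum. The spread of the list is thus mostly that of genes already named, and the list gives no separate support. Its part in the values of the odorant-binding protein genes was not tested. The RNA was precipitated with pS6 from whole tissue. Fewer cells of a type, less RNA per cell and a smaller share of it on pS6 ribosomes cannot be told apart.

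The remaining members resembled genes of other kinds. Scgb1c1 was most like S100a1 (0.959), Dbi (0.958) and Wfdc2 (0.948), a secreted protein of the whey acidic protein family. Bpifa1 was most like the antibacterial lectin gene Reg3g (0.898), the collectin gene Sftpd (0.835) and Ly6a (0.811). Muc5b was most like Lrp1 (0.875), Ptprf (0.852) and Aox2 (0.827). Muc2 was most like Ubr4 (0.887), the mucin gene Muc16 (0.876) and Herc2 (0.873), and Sox9 was most like Mindy1 (0.924), Anxa6 (0.898) and Galm (0.889).

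Odor groups were set against the control mice from the same set, which asks whether RNA on pS6 ribosomes differed after exposure. Calls needed an adjusted p below 0.05 in edgeR's 2-sided quasi-likelihood test, with Benjamini-Hochberg adjustment over all genes of the set. All adjusted p in the comparisons that follow come from this test unless another is named. In 9 such comparisons Scgb1c1 was called lower in 4, Bpifa1 in 3, Muc5b in 2, Obp1a in 2, Obp2a in 2, Obp2b in 1 and Sox9 in 5. Muc2 was called higher in 2 and lower in 2, and no other member was called higher against no odor. Over the 9 comparisons 5.49% to 32.5% of all genes were called. Every call of an odorant-binding protein gene was lost without control replicate 3 of the OC set. The 3 comparisons of a set share their control mice. Whether libraries overlap is given as a description, without the share of all genes whose libraries do not overlap.

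**Figure D4:**
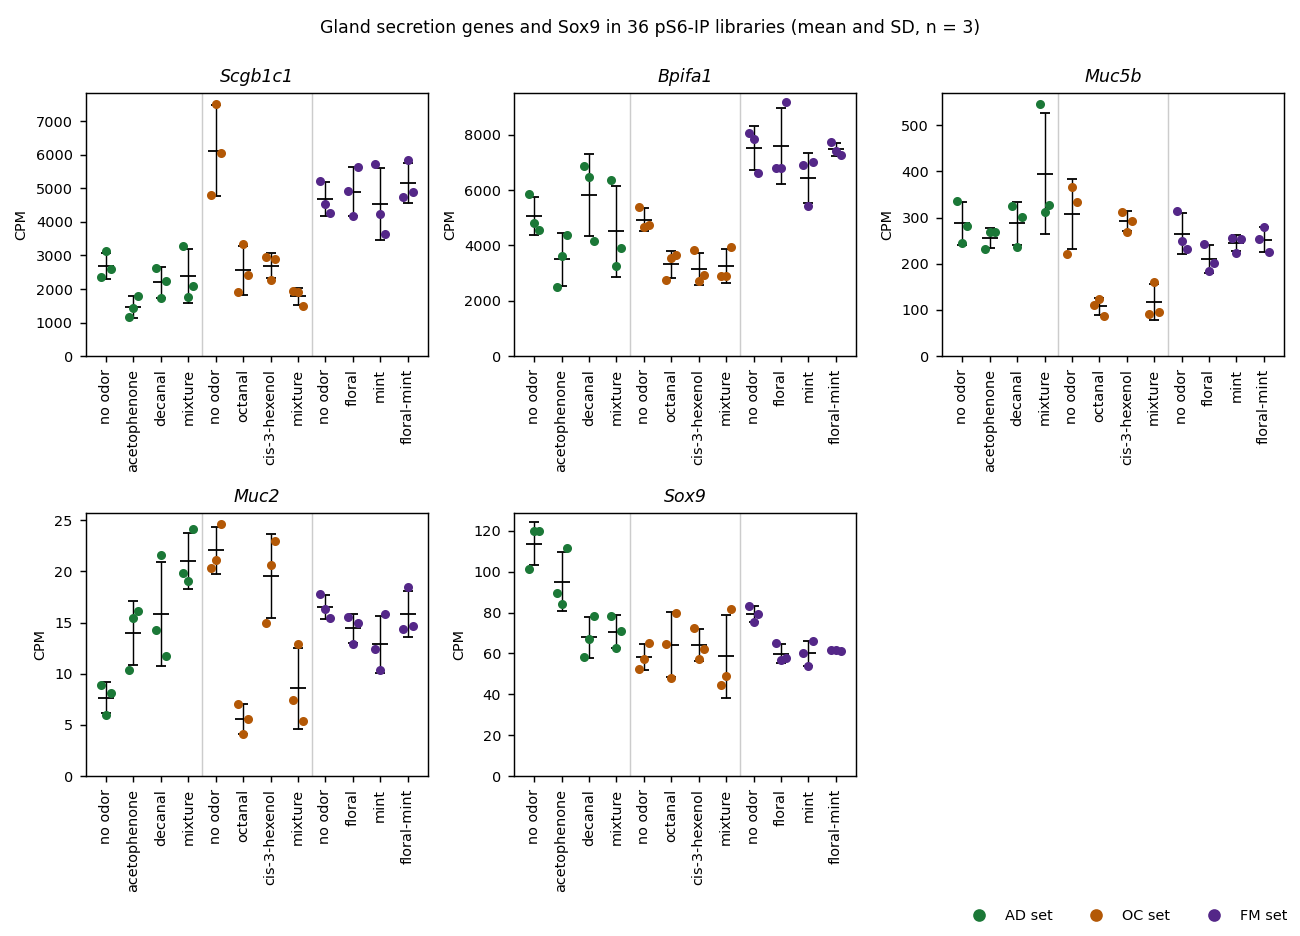
CPM of Scgb1c1, Bpifa1, Muc5b, Muc2 and Sox9 in each library (points, colored by set) with the group mean and SD (n = 3), on linear axes from 0. Octanal and the octanal-hexenol mixture lie below the no-odor mice of the OC set in the first 4 panels, and decanal, its mixture and the fragrances lie below their controls for Sox9.

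Octanal gave the most calls. Of the 8 members 7 were called lower, where 32.3% of the 19568 genes tested were called and 14.4% were called lower. The median log2 change of the 8 was -1.75, against -0.04 over all genes. Among mucins, Muc2 had 20.4, 21.1 and 24.7 CPM without odor and 7.06, 4.08 and 5.57 CPM with octanal. All 3 octanal mice were below all 3 controls, and the log2 change was -1.98 (SE 0.289, adjusted p 0.000126). Muc5b, the main airway mucin, had 221, 367 and 334 CPM without odor and 112, 123 and 88.0 CPM with octanal, again without overlap. It fell by 1.51 on the log2 scale (SE 0.229, adjusted p 0.000168).

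The secreted small proteins fell as well. Scgb1c1 had 4809, 7517 and 6048 CPM without odor and 1903, 3334 and 2422 CPM with octanal, a 2.40-fold lower level (log2 -1.26, SE 0.219, adjusted p 0.000509). Bpifa1 had 5407, 4675 and 4724 CPM and 2769, 3537 and 3663 CPM (log2 -0.57, SE 0.184, adjusted p 0.0268). Neither gene's groups overlapped. The call for Bpifa1 was lost without control replicate 1 and without octanal replicate 1, whereas Muc2, Muc5b and Scgb1c1 stayed called whichever mouse was left out. Sox9 stood at 58.2 ± 6.25 CPM (SD, n = 3) without odor and 64.2 ± 15.9 CPM with octanal, and was not called (log2 0.14, adjusted p 0.648, and -0.02 with libraries scaled to the median receptor gene).

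The odorant-binding protein genes were called lower with octanal, but their groups overlapped and the calls rested on control replicate 3. The log2 changes were -3.29 for Obp1a (SE 1.16, adjusted p 0.0402), -4.18 for Obp2a (SE 1.38, adjusted p 0.0298) and -3.99 for Obp2b (SE 1.45, adjusted p 0.0458). Without control replicate 3 they were -0.76, -0.49 and 0.12, and none was called (adjusted p 0.595, 0.758 and 0.952). The calls were also lost when any single octanal mouse was left out.

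The octanal-hexenol mixture gave 6 members called lower and none higher, where 32.5% of all genes were called and 14.8% were called lower. Scgb1c1 had 1939, 1919 and 1499 CPM, 3.43-fold lower than without odor (log2 -1.78, SE 0.222, adjusted p 3.606e-05). Muc5b had 91.4, 161 and 96.3 CPM (log2 -1.40, SE 0.228, adjusted p 0.000301) and Muc2 had 7.41, 13.0 and 5.34 CPM (log2 -1.37, SE 0.279, adjusted p 0.00178). Bpifa1 had 2903, 2893 and 3958 CPM (log2 -0.60, SE 0.184, adjusted p 0.0204). All 3 mixture mice were below all 3 controls for these 4 genes. The call of Bpifa1 was lost without control replicate 1, mixture replicate 1 or mixture replicate 2, and the other 3 stayed called whichever mouse was left out. Obp1a (log2 -3.91, SE 1.20, adjusted p 0.0201) and Obp2a (log2 -4.20, SE 1.38, adjusted p 0.0288) overlapped the controls, and without control replicate 3 stood at -1.37 and -0.50 (adjusted p 0.309 and 0.747). Their calls were also lost without mixture replicate 1 and without mixture replicate 3.

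Cis-3-hexenol gave 2 members called lower, where 5.74% of all genes were called and 3.16% were called lower. Scgb1c1 had 2942, 2267 and 2887 CPM against 4809, 7517 and 6048 CPM without odor, with no overlap (log2 -1.18, SE 0.219, adjusted p 0.00727). Bpifa1 had 3818, 2710 and 2920 CPM, also below every control (log2 -0.65, SE 0.184, adjusted p 0.0498). Scgb1c1 was no longer called without hexenol replicate 2, and Bpifa1 stayed called only when hexenol replicate 1 was the mouse left out. The mucins overlapped the controls: Muc5b was at 292 ± 21.7 CPM against 308 ± 76.6 and Muc2 at 19.6 ± 4.12 CPM against 22.1 ± 2.29. Obp2a had a log2 change of -5.04 that missed the threshold (SE 1.44, adjusted p 0.0503), and without control replicate 3 it was -1.38 (adjusted p 0.518). It was called by DESeq2 (adjusted p 0.00713), with median-of-ratios scaling (0.0487), with scaling to the median receptor gene (0.00385), and without control replicate 1 (0.0385) or hexenol replicate 1 (0.0466). Obp1a (log2 -3.91, adjusted p 0.0644) was called by DESeq2 (0.0245), with receptor scaling (0.00512) and without control replicate 1 (0.0390). Obp2b (log2 -4.43, adjusted p 0.0890) was called with receptor scaling (0.00982). The libraries of all 3 genes overlapped the controls.

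Mixture and component were compared directly in the OC set. Against cis-3-hexenol, 2 members were lower in the mixture, where 12.9% of all genes were called and 5.03% were called lower. Muc5b stood 2.51-fold lower (116 ± 38.9 against 292 ± 21.7 CPM, log2 -1.33, SE 0.227, adjusted p 0.00355), and Muc2 2.29-fold lower (8.56 ± 3.93 against 19.6 ± 4.12 CPM, log2 -1.19, SE 0.278, adjusted p 0.0142). The Muc2 call was lost in 4 of 6 fits with a mouse left out (hexenol replicates 2 and 3, mixture replicates 1 and 3). Scgb1c1 did not overlap between these groups but was not called (log2 -0.60, adjusted p 0.0775), although DESeq2 (adjusted p 0.0313) and the fit of all 36 libraries (adjusted p 0.0384) called it. Mature neuron markers were higher in 11 of 16 here, bone and osteoclast markers lower in 4 of 13 and red blood cell markers lower in 2 of 11. The 1900 longest genes (from 9.102 kb of exon) had a median log2 difference of -0.26, against -0.05 over all genes, and Muc5b has 14.964 kb and Muc2 7.127 kb. The part of these cells and of length in the 2 calls was not tested. Against octanal no member was called by edgeR or DESeq2, where 0.0715% of all genes were called. At an unadjusted p under 0.05 edgeR gave 2, namely Muc2 (log2 0.61) and Scgb1c1 (log2 -0.52).

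Markers of other cells changed in the same OC comparisons. With octanal 16 of 16 tested mature sensory neuron markers were called higher, and their sum went from 8587 to 11070 CPM in controls to 21500 to 30560 CPM. Red blood cell markers were called lower in 11 of 11, with sums of 78310 to 92870 CPM in controls and 7473 to 23240 CPM with octanal. Neutrophil and marrow markers were lower in 9 of 10, bone and osteoclast markers in 11 of 13 and basal cell markers in 8 of 9. Sustentacular cell markers were higher in 1 and lower in 3 of 18. With cis-3-hexenol 10 of 16 neuron markers were higher and 9 of 11 red blood cell markers lower (19600 to 28220 CPM). With the mixture the counts were 15 of 16 and 11 of 11 (9126 to 20650 CPM). Median log2 changes of the 1900 shortest genes (up to 1.273 kb of exon) were -0.25 (octanal), -0.26 (cis-3-hexenol) and -0.39 (mixture). In the same order those of the 1900 longest (from 9.102 kb) were -0.19, 0.12 and -0.15, and of all genes -0.04, 0.05 and -0.05. Scgb1c1 has 0.455 kb, Bpifa1 1.545 kb, Muc2 7.127 kb and Muc5b 14.964 kb. The split was chosen after the data were seen. The part of these cells and of length in the changes of the secretory genes was not tested.

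Other genes of secretion were counted with octanal. Of 18 secreted defence and transport proteins of glands 11 were called lower and none higher, with a list median of -1.02 against -0.04 over all genes. Slpi, a protease inhibitor of mucus, went from 22.8 to 5.76 CPM (log2 -1.98, adjusted p 0.000164). Pigr, the receptor that carries antibodies into mucus, went from 25.4 to 10.1 CPM (log2 -1.33, adjusted p 6.983e-05), and Reg3g from 409 to 187 CPM (log2 -1.13, adjusted p 0.000104). Of 15 transcription factors of secretory and gland cells 7 were lower, among them Ascl3, also a gene of microvillous cells (log2 -0.99, adjusted p 0.001) and Sox2 (log2 -0.75, adjusted p 0.00346). Of 9 tested other mucins and mucus granule proteins 4 were lower and 1 higher. The lower ones included Muc16 (log2 -1.37, adjusted p 0.00191), Tff2 (log2 -1.28, adjusted p 0.00379) and Agr2, which folds mucins (log2 -0.77, adjusted p 0.00705). Of 7 other nasal lipocalins 5 were lower, including Lcn2, also a gene of neutrophils (34.0 to 12.2 CPM, log2 -1.49, adjusted p 0.00523). The other 4 (Mup4, Mup5, Obp1b and Lcn11) overlapped the controls. For Mup4, Obp1b and Lcn11, control replicate 3 had 4346, 2920 and 1760 CPM, against at most 135, 277 and 115 in the other controls. The octanal mice had 80.3 to 95.4, 72.6 to 128 and 27.2 to 48.7 CPM in the same order. Of 30 genes of the endoplasmic reticulum and secretory pathway 10 were higher and 3 lower. The sum of 12 other BPI-fold genes hardly differed, at 3460 to 5258 CPM in controls and 3262 to 5256 CPM with octanal. That of 12 other secretoglobins was 8.73 to 83.8 CPM in controls and 2.32 to 4.37 CPM with octanal.

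The single mucin called higher was Muc13, a membrane-bound mucin, and it was called higher in all 9 odor comparisons without overlap of libraries. It had 5.86 CPM without odor, 22.4 with octanal (log2 1.94, adjusted p 0.000102), 13.6 with cis-3-hexenol (log2 1.22, adjusted p 0.019) and 29.4 with their mixture (log2 2.33, adjusted p 2.357e-05). In the AD set it went from 9.22 CPM to 20.9 with acetophenone, 17.7 with decanal and 21.8 with the mixture. In the FM set it went from 9.36 CPM to 16.9 (floral), 19.4 (mint) and 18.1 CPM (floral-mint). These 9 comparisons had 5.49% to 32.5% of all genes called, and the share called higher in all 9 is not given here. The summed markers of mature neurons also had a higher mean in every odor group than in its controls. OC means were 10100 (no odor), 24990 (octanal), 14640 (hexenol) and 26110 CPM (mixture). AD means were 11590 (no odor), 20440 (acetophenone), 18370 (decanal) and 19300 CPM (mixture). FM means were 15420 (no odor), 23550 (floral), 25280 (mint) and 24070 CPM (floral-mint). The part of these cells in the level of Muc13 was not tested.

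In the AD set Scgb1c1 was lower with acetophenone, and Muc2 was higher and Sox9 lower with decanal and with the mixture. Acetophenone gave 1 member called, where 5.49% of all 19514 genes were called and 1.27% were called lower. It was Scgb1c1, with 2369, 3126 and 2594 CPM without odor and 1173, 1422 and 1801 CPM with acetophenone. The groups did not overlap and the level was 1.84-fold lower (log2 -0.88, SE 0.216, adjusted p 0.0298). The call was lost without control replicate 2 or 3 and without acetophenone replicate 1 or 2, and with libraries scaled to the median receptor gene (log2 -1.05, adjusted p 0.0509). Red blood cell markers summed to 15590 to 21070 CPM in controls and 2575 to 13200 CPM with acetophenone, mature neuron markers were higher in 13 of 16, and bone and osteoclast markers lower in 6 of 13. The 1897 shortest genes (up to 1.318 kb of exon) had a median log2 change of -0.15, against 0.002 over all genes, and Scgb1c1 has 0.455 kb. The part of these cells and of length in the change of Scgb1c1 was not tested. Muc2 was not called, though all 3 acetophenone mice lay above all 3 controls (10.4, 15.4 and 16.2 CPM against 8.94, 5.95 and 8.12, log2 0.86, adjusted p 0.0519). DESeq2 did call it (adjusted p 0.00933). Obp1a, Obp2a and Obp2b had log2 changes of 2.11, 2.71 and 2.94 with acetophenone and were not called (adjusted p 0.562, 0.468 and 0.387). Nor were they called with decanal, the mixture or any fragrance.

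Decanal gave 2 members called, where 22.3% of all genes were called, 10.8% higher and 11.5% lower. Muc2 was higher, at 14.3, 21.6 and 11.8 CPM (log2 1.05, SE 0.241, adjusted p 0.00692). Sox9 was lower, at 58.3, 67.1 and 78.2 CPM against 102, 120 and 120.0 CPM without odor (log2 -0.75, SE 0.135, adjusted p 0.00163). The acetophenone-decanal mixture also gave these 2 calls, where 21.4% of all genes were called, 10.9% higher and 10.4% lower. Muc2 stood at 19.8, 19.1 and 24.2 CPM, 2.74 times the controls (log2 1.45, SE 0.241, adjusted p 0.00104), and Sox9 at 78.6, 62.8 and 70.9 CPM (log2 -0.69, SE 0.134, adjusted p 0.00296). No library of these groups overlapped the controls for either gene, and the 4 calls held whichever mouse was left out. Muc5b was not called with the mixture (log2 0.46, adjusted p 0.110) and its libraries overlapped the controls. DESeq2 did call it higher (adjusted p 0.0428), as did edgeR without the filter on low counts (adjusted p 0.0339).

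Against acetophenone the mixture differed in 3 members, where 25.7% of all genes were called, 11.3% higher and 14.4% lower. Muc5b was 1.54 times as high (546, 312 and 328 CPM against 232, 269 and 270 CPM, log2 0.62, SE 0.192, adjusted p 0.0286). Scgb1c1 was 1.63 times as high with overlapping mice (3297, 1761 and 2098 CPM, log2 0.70, SE 0.215, adjusted p 0.0275). Sox9 was lower (log2 -0.43, SE 0.134, adjusted p 0.0310), but not with libraries scaled to the median receptor gene (log2 -0.24, adjusted p 0.343). Each of the 3 calls was lost in 3 of 6 fits with a mouse left out. Without mixture replicate 1, Muc5b stood at 0.31 and Scgb1c1 at 0.39. Muc2 was not called (log2 0.59, adjusted p 0.0814), but was by DESeq2 (adjusted p 0.0483). In this comparison red blood cell markers were higher in 10 of 11, mature neuron markers lower in 11 of 16 and higher in 1, and ciliated cell markers lower in 5 of 12. Bone and osteoclast markers were higher in 8 and lower in 1 of 13, and neutrophil markers were higher in 6 of 10. The 1897 shortest genes (up to 1.318 kb of exon) had a median log2 difference of 0.49 and the 1898 longest -0.06, a split chosen after the data were seen. Scgb1c1 has 0.455 kb and Muc5b 14.964 kb. The part of these cells and of length in the 3 calls was not tested. Against decanal no member was called by edgeR or DESeq2, where 0.287% of all genes were called, and 1 (Muc5b, log2 0.46) had an unadjusted p under 0.05.

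Related genes were counted in the same way. With decanal 5 of 15 other gland transcription factors were lower and none higher, among them Sox10, also a gene of ensheathing glia (44.7 to 23.5 CPM, log2 -0.93, adjusted p 0.00391). Of the 18 secreted defence and transport proteins 4 were lower and 1 higher with decanal (list median -0.12). The lower ones included the water channels Aqp3, Aqp4 and Aqp5, at -0.66, -0.65 and -0.63 (adjusted p 0.00444, 0.00964 and 0.0297), and the higher one was the ion transporter gene Slc12a2 (log2 0.29, adjusted p 0.0290). Of 7 tested markers of respiratory secretory cells 1 was lower and none higher, with a list median of 0.17. It was Cyp2f2, which went from 1689 to 762 CPM (log2 -1.15, adjusted p 0.000684). Of 18 sustentacular markers 7 were lower. Among mucins, Muc16 rose with decanal (log2 1.06, adjusted p 0.00486) and Muc20 fell by 1.44 on the log2 scale (adjusted p 0.0122). Red blood cell markers summed to 15590 to 21070 CPM in controls and 39510 to 42300 CPM with decanal, and their part was not tested.

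In the FM set Sox9 was the member called with each fragrance. The no-odor mice had 83.3, 75.4 and 79.2 CPM. With floral, where 14% of the 19204 genes tested were called and 5.35% were called lower, Sox9 had 65.1, 56.6 and 58.0 CPM (log2 -0.40, SE 0.0848, adjusted p 0.00689). With mint, where 11.2% were called and 4.07% were called lower, it had 60.2, 53.9 and 66.2 CPM (log2 -0.40, SE 0.0850, adjusted p 0.00735). With floral-mint, where 9.64% were called and 3.22% were called lower, it had 61.9, 61.5 and 61.4 CPM (log2 -0.36, SE 0.0847, adjusted p 0.0135). Every fragrance mouse was below every control. The floral-mint call was lost without control replicate 1, and all 3 calls were lost when the 36 libraries shared a fit (adjusted p 0.174, 0.208 and 0.281, log2 -0.41, -0.40 and -0.37).

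The secreted products had no call from edgeR in the FM set when every mouse and the filter on low counts were kept. Scgb1c1 was at 4678 ± 502 CPM without odor, then 4906 ± 725 (floral), 4534 ± 1083 (mint) and 5157 ± 599 CPM (floral-mint). Bpifa1 was at 7507 ± 793, 7590 ± 1367, 6441 ± 893 and 7473 ± 239 CPM in the same order. Muc5b (265 ± 43.8, 210 ± 30.4, 245 ± 17.9 and 252 ± 27.0 CPM) and Muc2 (16.5 ± 1.18, 14.5 ± 1.41, 12.9 ± 2.76 and 15.8 ± 2.29 CPM) were not called either. DESeq2 called Muc5b lower with floral (log2 -0.34, adjusted p 0.0362), and edgeR did so without floral replicate 1 (log2 -0.46, adjusted p 0.0426). Without mint replicate 3, edgeR called Muc2 lower with mint (log2 -0.54, adjusted p 0.0197). Without the filter it called Muc5b lower with floral (adjusted p 0.00377) and Bpifa1 lower with mint (adjusted p 9.55e-05). Of 15 gland transcription factors, floral had 4 lower, mint 3 and the floral-mint fragrance 3. With floral 8 of 18 sustentacular markers were also lower, and 3 and 1 with mint and floral-mint. Bone and osteoclast markers were lower in 3, 9 and 9 of 13. Mature neuron markers were higher in 6, 12 and 10 of 16 in the same order, with sums of 14170 to 16240 CPM in controls and 22140 to 25830 CPM with the fragrances. Red blood cell markers summed to 30420 to 33040 CPM in controls, 38480 to 74210 CPM with floral, 33640 to 47410 CPM with mint and 28340 to 49910 CPM with floral-mint, the last overlapping the controls. The part of these cells in the level of Sox9 was not tested.

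Against its components, floral-mint had no member called by edgeR or DESeq2, where 0.12% of all genes were called against floral and 0.104% against mint. At an unadjusted p under 0.05 edgeR gave 2 members against floral, Obp2b (log2 2.31, adjusted p 0.561) and Muc5b (log2 0.27, adjusted p 0.589), and 0 against mint.

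**Figure D5:**
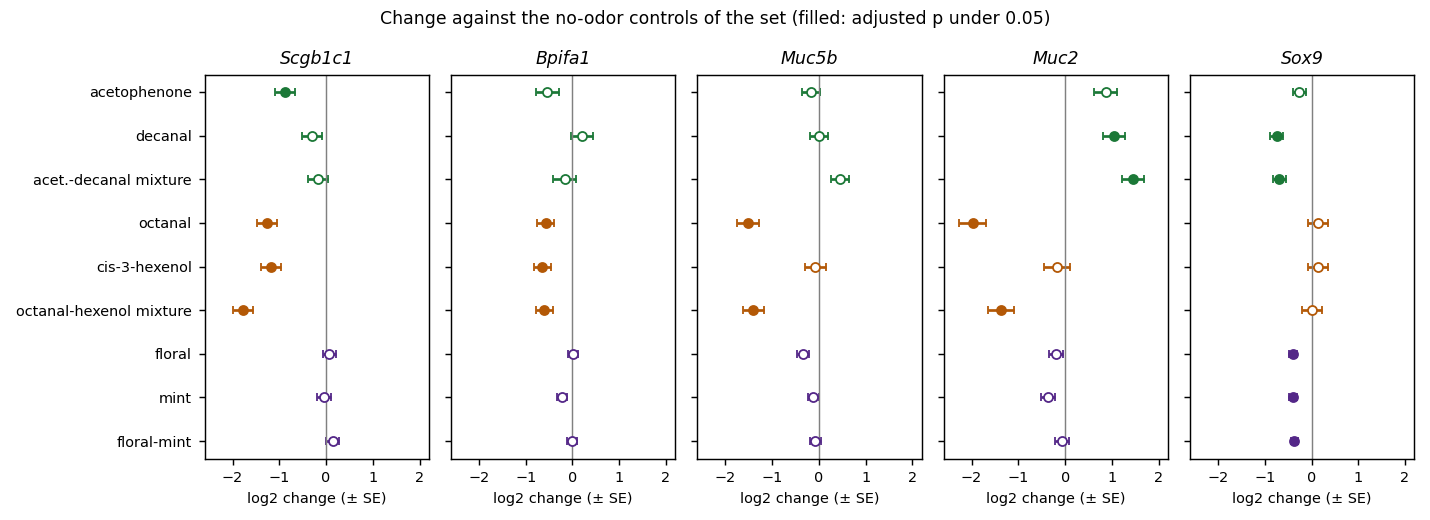
Log2 change (horizontal, ± SE) against the no-odor controls of the set for Scgb1c1, Bpifa1, Muc5b, Muc2 and Sox9 in 9 odor comparisons (rows), with filled points where the adjusted p is under 0.05. Muc2 lies at 1.45 in the acetophenone-decanal mixture and at -1.98 with octanal, and Sox9 is filled for decanal, the acetophenone-decanal mixture and the 3 fragrances.

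The no-odor levels are set side by side for the 3 sets. These values cross batches and their differences were not tested. Scgb1c1 had 2696 ± 389 CPM in AD controls, 6125 ± 1356 in OC controls and 4678 ± 502 in FM controls. Muc2 had 7.67 ± 1.55, 22.1 ± 2.29 and 16.5 ± 1.18 CPM, and Sox9 114 ± 10.6, 58.2 ± 6.25 and 79.3 ± 3.95 CPM in the same order. The AD controls were thus the lowest for Muc2 and the highest for Sox9. Bpifa1 had 5064 ± 687, 4935 ± 409 and 7507 ± 793 CPM, with the FM controls above the others. Muc5b had 288 ± 46.3, 308 ± 76.6 and 265 ± 43.8 CPM, and its 3 control groups overlapped.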

How the data were processed

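RNA from pS6 immunoprecipitates was sequenced in 36 libraries. The authors deposited expected counts for each gene, which were rounded here to whole numbers for the tests. GRCm39, R 4.4.2, Salmon 1.10.1 and STAR 2.7.10b are named in the submitters' processing notes, while the annotation and the step that gave the counts are not given in the sources used here. Symbols and exon lengths came from GENCODE vM21 (52029 identifiers named). Each set was fitted alone with 4 groups by edgeR 4.0.16 (filterByExpr, minimum count 10, minimum total 15, TMM, glmQLFit and glmQLFTest, prior count 0.125). SE were computed from the log2 change and its F statistic. CPM are given per mouse or as mean ± SD, n = 3. DESeq2 1.42.0, other scalings, no filter, a joint fit, a replicate block and leaving out each mouse were alternatives.

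The 8 members, the related gene lists and the tests were chosen with earlier results of these data known. Named genes were all members, up to 3 called genes each way per list and odor with the smallest p and no overlap of libraries, and the 3 genes most like each member, with those named by Gm or Rik left out. Other genes named by their counts were chosen after their values were seen. The method was tested on simulated data, transcripts were compared with blastn 2.17.0, and no 2 libraries of a group agreed within sampling noise. Replicates are separate mice per the labels.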

Additional observations from a re-analysis of the deposited data

Results flagged for a closer look

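The following 5 values are listed because a mixture differed, by its own test, from an odorant it contains. They concern gland products and Sox9, and none concerns an odorant-binding protein gene. In the acetophenone-decanal mixture against acetophenone, the log2 difference was 0.62 for Muc5b, 0.70 for Scgb1c1 and -0.43 for Sox9. In the octanal-hexenol mixture against cis-3-hexenol it was -1.33 for Muc5b and -1.19 for Muc2. Of all genes, 25.7% were called in the first comparison and 12.9% in the second, so calls were common in both. Of the 5 values, only Muc5b in the octanal-hexenol mixture stayed called whichever mouse was left out.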

How the results depend on the processing

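Of 28 called values, 28 were kept with median-of-ratios scaling, 28 without a filter on low counts, 26 with scaling to the median receptor gene, 23 with a replicate block and 19 when all 36 libraries shared a fit. DESeq2 kept 27 of 27, and Obp2b had no adjusted p from it in the OC set. Leaving out mice kept 121 of 168. The causes were not tested. The odorant-binding protein genes had 1 to 9 counts in their lowest libraries, whose totals were 21.75 and 23.58 M. Muc2 had 69 to 512 counts per library.

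With group means removed, same-numbered mice of different groups correlated at -0.0955 to 0.112 (AD), -0.0814 to 0.187 (OC) and -0.194 to 0.106 (FM). Mice with different numbers correlated at -0.153 to 0.17, -0.28 to 0.206 and -0.152 to 0.159. The numbers thus showed no pairing by this measure, which does not exclude one. With the replicate block 4 members were called with octanal instead of 7, and the lost calls were Obp1a, Obp2a and Obp2b (adjusted p 0.0949, 0.0993 and 0.149). Obp1a and Obp2a with the octanal-hexenol mixture were lost too (0.0849 and 0.135).

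Members called changed as follows. Without the filter edgeR gave far smaller adjusted p for the odorant-binding protein genes (Obp2a with hexenol 1.43e-108, against 0.0503 with it) for a cause that was not tested, and the added calls for hexenol are these 3 genes. Without the filter they were 3 for acetophenone (1 with it), 5 for hexenol (2), 4 for floral (1), mint 5 (1), floral-mint 3 (1), 1 for the octanal-hexenol mixture against octanal (0), 5 against hexenol (2), and 3 and 3 for floral-mint against floral and mint (0 and 0). With receptor scaling they were 0 for acetophenone and 5 for hexenol. DESeq2 gave 2 for acetophenone, 4 for hexenol and 2 for floral. The joint fit gave 2 for acetophenone, 4 for octanal and 0 for all 3 fragrances. Leaving out a mouse gave 0 to 1 for acetophenone, 3 to 7 for octanal, 0 to 3 for hexenol, 3 to 6 for their mixture, 1 to 2 for that mixture against hexenol, 1 to 2 for the acetophenone-decanal mixture against acetophenone, 1 to 2 for floral and mint alike and 0 to 1 for floral-mint. Obp2b with octanal (-3.99) ranged from -4.56 without control replicate 1 to 0.12 without control replicate 3, a change of sign.

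All genes called changed as follows. Receptor scaling gave 405 for acetophenone (1071 as reported), 2529 for decanal (4354), 2169 for their mixture (4168), 4692 for hexenol (1123), 893 for the octanal-hexenol mixture against hexenol (2523), 1508 for floral (2698), mint 1177 (2145) and floral-mint 1064 (1851). DESeq2 gave 1864 for acetophenone, 1974 for hexenol, 99 for the acetophenone-decanal mixture against decanal (56), 23 for the octanal-hexenol mixture against octanal (14), and 73 and 60 for floral-mint against floral and mint (23 and 20). No filter gave 1993 for hexenol and, in the last 4 comparisons, 100, 160, 390 and 300. The joint fit gave 3182 for hexenol, 22 for the octanal-hexenol mixture against octanal, 4848 against hexenol, 781, 682 and 653 for the floral, mint and floral-mint fragrances and 12 for floral-mint against mint. Leaving out a mouse gave 386 to 1175 for acetophenone, 2879 to 3846 for decanal, 2695 to 3452 for their mixture, 3932 to 7044 for octanal, 271 to 566 for hexenol, 336 to 3097 for the octanal-hexenol mixture against hexenol, 967 to 2046 for floral, mint 982 to 3336, floral-mint 839 to 1743 and 13 to 40 for floral-mint against mint.

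Receptor scaling moved the median of all genes by -0.17 (acetophenone), -0.15 (octanal), -0.51 (hexenol), -0.45 (octanal-hexenol mixture), 0.18 (acetophenone-decanal mixture against acetophenone), -0.30 (octanal-hexenol mixture against octanal) and -0.11 (floral-mint against floral) on the log2 scale. The share of calls that were higher went from 76.8% to 40.3% (acetophenone), 55.5% to 35.5% (octanal), 44.9% to 2.22% (hexenol), 54.4% to 11.9% (octanal-hexenol mixture), 43.8% to 71.8% (acetophenone-decanal mixture against acetophenone) and 66.6% to 40.6% (floral-mint).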

Other observations

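Among the 20 genes that varied most between mice of a group, listed after their values were seen, several were other secreted carriers. With group means removed, Obp1b, Lcn11, BC051076, Mup4 and Mup5 had r of 0.998, 0.993, 0.988, 0.961 and 0.950 with Obp1a over 36 libraries, and Lcn3 had 0.778. The enamel matrix genes Amelx and Ambn were as variable but had r of 0.172 and 0.179 with Obp1a, and reached 1548 and 1609 CPM. Bpifb9a and Bpifb9b had 0.387 and 0.413. These correlations are descriptions, and the libraries share depth and dissection.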
